A study of Mus musculus with 36 samples.

Results

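Both arms of miR-21a, mmu-miR-21a-5p and mmu-miR-21a-3p, were followed through myocardial infarction (MI) in the mouse left ventricle. The arms are 2 of the 624 mature miRNAs listed for the small RNA libraries and were picked by name, knowing that they were high after MI. Their levels and their ratio are therefore given as a description with no test, and the host gene Vmp1 and the target mRNAs Pdcd4, Spry1 and Reck, measured in other libraries, were tested. C57BL/6 male mice, 8 weeks old at surgery, had the left anterior descending coronary artery tied (MI) or were operated on without tying it (sham). Ventricles were taken 1 day, 1 week or 8 weeks later, with 3 mRNA and 3 small RNA libraries per group and stage, 36 in all. RNA came from pooled ventricles by the labels, which do not say how many animals a library holds, so the p-values measure the spread between these libraries only. An mRNA and a small RNA library of the same group, stage and number carry the same library name.

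miR-21 is made from a primary transcript that overlaps the 3′ end of Vmp1, a gene of autophagosome formation. Drosha and Dicer cut the hairpin into a duplex of 2 arms, of which the 5p arm is usually the one loaded into Argonaute to repress mRNAs through bases 2 to 8, its seed, while the 3p arm is mostly discarded. In the heart miR-21 is known from stressed fibroblasts, and its best known targets there restrain growth signalling (Spry1), translation (Pdcd4) and matrix proteases (Reck).

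The mature sequences, from RefSeq (GRCm38.p6), are shown because the seed, in capitals, decides which target sites can pair.
miR-21a-5p: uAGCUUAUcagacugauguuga
miR-21a-3p: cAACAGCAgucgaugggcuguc
miR-21c: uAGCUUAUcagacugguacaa
miR-21b: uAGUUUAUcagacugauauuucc
The 5p arm lies at chr11:86584120-86584141 and the 3p arm at chr11:86584082-86584103, both on the minus strand. The Mir21a hairpin (chr11:86584067-86584158) lies inside exon 12 of Vmp1 (chr11:86583865-86585451), in the part that is 3′ UTR, so mRNA reads from the primary miR-21 transcript there cannot be told apart from Vmp1 mRNA. Of the 624 miRNAs listed for these libraries, 530 were found by name in RefSeq, and only these were searched for the seeds. Besides the arms themselves, only miR-21c among them had the seed of the 5p arm, and none had that of the 3p arm. miR-21c, on chromosome 8, was the same as miR-21a-5p at 16 of 21 bases, the first difference being at position 16 from the 5′ end. miR-21b, on chromosome 3, had 18 of 22 bases in common but differed at position 4, within the seed.

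The 3′ UTRs of Pdcd4, Spry1 and Reck each held a single site complementary to the 5p seed, ATAAGCT, followed by an A. They are shown with this 8-base site in capitals, in 30 bases of the plus strand (GRCm38).
Pdcd4: tgggtgttctgATAAGCTActttctaagtg
Spry1: taagtgcttaaATAAGCTAtatattaatct
Reck: tacagtttgaaATAAGCTAttaatgtaata
The Pdcd4 stretch lies at chr19:53929421-53929450, and its site starts at base 289 of a 717-base 3′ UTR. The Spry1 stretch lies at chr3:37643862-37643891, with the site at base 322 of 1047. The Reck stretch lies at chr4:43944396-43944425, with the site at base 1042 of 1441. ATAAGCTA was found in the longest annotated 3′ UTR, read on the mRNA strand only, of 2.24% of 15234 genes and the 7-base core ATAAGCT in 7.69%. A match is a description of letters and not evidence of binding.

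The small RNA libraries held 12094554 to 15999649 miRNA reads in MI at 1 day and 28647053 to 39735944 in the others, so counting error on both arms was small: the lowest counts in any library were 53801 reads of miR-21a-5p and 1013 of miR-21a-3p. Both arms passed the filter on low values, as did 358 miRNAs. The depth of the mRNA libraries is unknown. All 12 cardiomyocyte markers were detected in every group. Their summed level was 14496 to 17870 FPKM in MI against 39838 to 42820 FPKM in sham at 1 day, 2881 to 9119 against 42923 to 48254 FPKM at 1 week, and 16118 to 38508 against 45211 to 46754 FPKM at 8 weeks. In such bulk tissue, fewer cells of a type and less RNA per cell cannot be told apart.

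mmu-miR-21a-5p was higher in every MI library than in every sham library at all 3 stages, with its peak at 1 week. At 1 day it had 10715, 11208 and 11452 reads per 1000000 miRNA reads (RPM) in MI, against 2244, 2626 and 1892 RPM in sham. At 1 week it had 93533, 74256 and 66017 RPM in MI, against 2463, 2407 and 2267 RPM in sham. The MI libraries of 1 week thus gave 9.35%, 7.43% and 6.60% of all miRNA reads to this arm, which ranked 1, 3 and 3 among the 624 miRNAs, while in sham it ranked 40 in all of them. Later, at 8 weeks, this arm had 16380, 13799 and 23444 RPM in MI, against 1745, 1445 and 2191 RPM in sham. The third MI library of 8 weeks was the highest of its group, and the ranks there were 16, 17 and 12 in MI against 42, 47 and 40 in sham.

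In mean RPM the change of miR-21a-5p was 4.94-fold at 1 day, 32.8-fold at 1 week and 9.96-fold at 8 weeks (n = 3 per group). From the highest to the lowest group, it averaged 77935 ± 14122 RPM in MI at 1 week, 17875 ± 4993 in MI at 8 weeks, 11125 ± 375 in MI at 1 day, 2379 ± 101 in sham at 1 week, 2254 ± 367 in sham at 1 day and 1794 ± 375 in sham at 8 weeks (mean ± s.d.). Neighbouring sham groups overlapped in this order, and no MI group overlapped another group. An RPM is a share of the library, and the library composition differed between MI and sham. Scaled by edgeR's trimmed mean of M-values (TMM), which sets the bulk of miRNAs level, the log2 fold changes were 1.72 (SE 0.16), 3.89 (SE 0.17) and 2.50 (SE 0.16) at the 3 stages in turn, or 3.29-fold, 14.8-fold and 5.66-fold. Among 358 miRNAs these ranked 26, 12 and 19 from the highest, and the direction was the same under every scaling tried.

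mmu-miR-21a-3p was also higher in every MI library than in every sham library, but its time course differed. At 1 day it had 675, 726 and 529 RPM in MI, against 61.8, 59.3 and 60.7 RPM in sham. At 1 week it had 1780, 1921 and 1581 RPM in MI, against 39.9, 35.7 and 40.5 RPM in sham. In the libraries of 8 weeks it had 159, 157 and 302 RPM in MI, against 31.3, 27.2 and 36.8 RPM in sham. The order of the MI groups was thus 1 week, 1 day, 8 weeks for the 3p arm and 1 week, 8 weeks, 1 day for the 5p arm, with no overlap between MI groups in either. In sham the 3p arm was highest at 1 day, 60.6 ± 1.22 RPM, and the groups of 1 week (38.7 ± 2.62 RPM) and 8 weeks (31.8 ± 4.84 RPM) overlapped. The TMM-scaled log2 fold changes of MI over sham were 2.82 (SE 0.19), 4.37 (SE 0.20) and 1.87 (SE 0.18), or 7.08-fold, 20.7-fold and 3.65-fold, ranking 15, 4 and 46 among 358 miRNAs. Levels that did not overlap with higher MI libraries were common in RPM: 58.1% of the 358 miRNAs at 1 day, 71.8% at 1 week and 65.1% at 8 weeks.

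**Figure D1:**
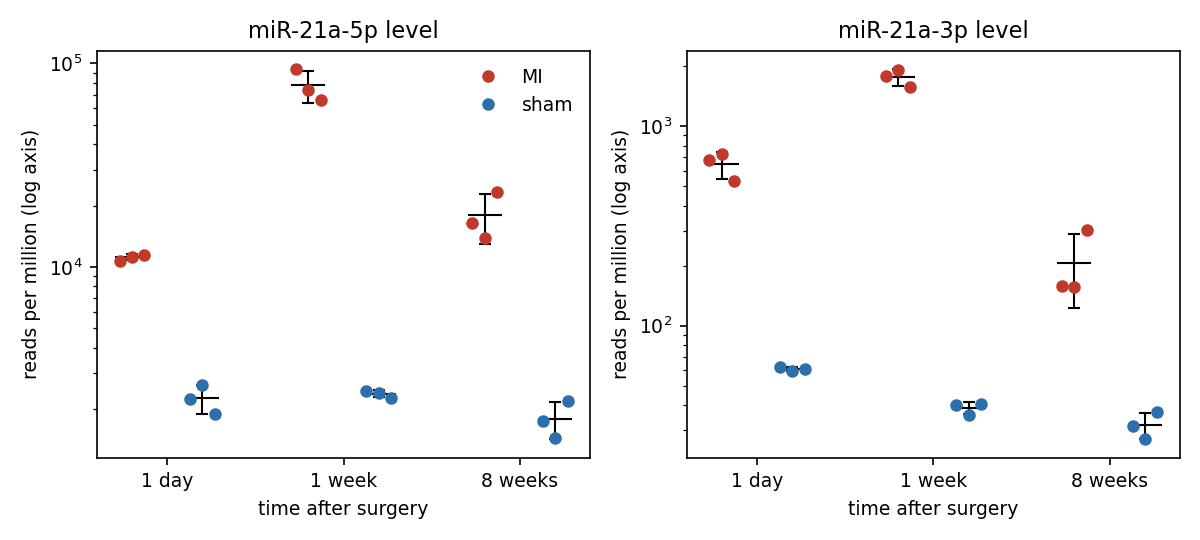
miR-21a-5p (left) and miR-21a-3p (right) in RPM, on log axes, for each small RNA library of MI (red) and sham (blue) by time after surgery, with the mean ± s.d. of 3 libraries in black. Every MI point lies above every sham point at its stage, and the 3p arm in MI at 8 weeks (157 to 302 RPM) lies below that at 1 day (529 to 726 RPM), while the 5p arm does not.

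Because both arms come from 1 hairpin and are counted in the same library, the ratio of their reads is the same under any scaling that uses 1 factor per library. At 1 day there were 15.9, 15.4 and 21.7 reads of the 5p arm per read of the 3p arm in MI, against 36.3, 44.2 and 31.1 in sham. At 1 week the ratio was 52.5, 38.7 and 41.7 in MI, against 61.7, 67.4 and 56.0 in sham. At 8 weeks it was 103, 88.0 and 77.6 in MI, against 55.7, 53.1 and 59.5 in sham. The ratio was thus lower in every MI library than in every sham library at 1 day and at 1 week, and higher in every one at 8 weeks. Of these, only the direction at 8 weeks was separate in the normalized log2 values of the authors, which give libraries nearly the same distribution (a median spread of 0.03 between libraries at the same rank) and so do not scale both arms alike. There the difference of MI minus sham was -0.32 at 1 day and 0.43 at 1 week, with overlapping groups, and 1.21 at 8 weeks, with none.

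In MI the mean ratio was 17.7 ± 3.47 at 1 day, 44.3 ± 7.29 at 1 week and 89.6 ± 12.8 at 8 weeks, with no overlap between stages. In sham it was 37.2 ± 6.60, 61.7 ± 5.72 and 56.1 ± 3.19 at the same stages, and the groups of 1 week and 8 weeks overlapped. The difference of MI minus sham in log2 was -1.08 at 1 day, -0.49 at 1 week and 0.67 at 8 weeks. Expressed as a share, the 3p arm made up 5.92%, 6.08% and 4.41% of miR-21a reads in MI at 1 day, against 2.68%, 2.21% and 3.11% in sham. In MI at 8 weeks it made up 0.960% (95% Wilson interval 0.933 to 0.988), 1.12% (1.10 to 1.15) and 1.27% (1.25 to 1.30), against 1.76% (1.66 to 1.87), 1.85% (1.74 to 1.96) and 1.65% (1.57 to 1.74) in sham. These intervals cover counting error only, since reads amplified by PCR are not independent molecules.

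Ratios that moved were not rare among other hairpins. Of 85 hairpins with both arms past the filter, 35.3% had a ratio of 5p to 3p lower in every MI than in every sham library at 1 day and 36.5% at 1 week, and 25.9% had a higher one at 8 weeks. At 1 day miR-21a had the seventh lowest log2 difference of these hairpins, whose median was -0.13, and 13 of 85 lay at least as far from 0. At 1 week 47 of 85 lay at least as far from 0, and at 8 weeks 19 of 85.

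**Figure D2:**
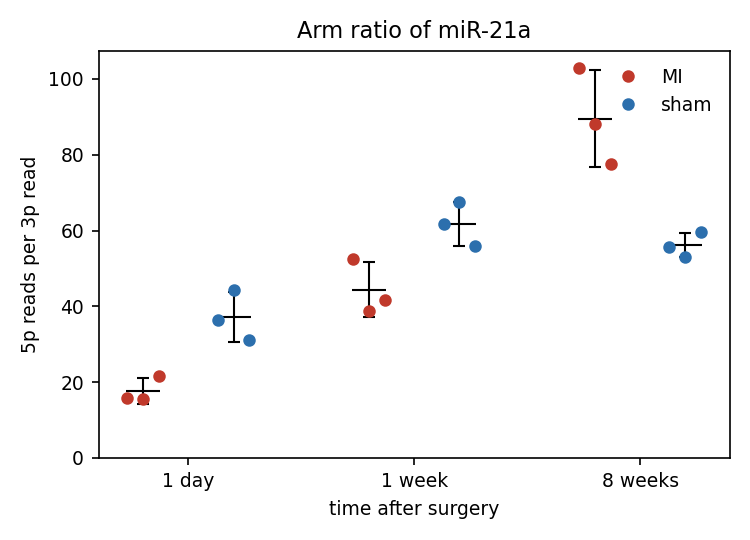
Reads of miR-21a-5p per read of miR-21a-3p in each small RNA library of MI (red) and sham (blue) by time after surgery, with the mean ± s.d. of 3 libraries in black. In reads, MI lies below sham at 1 day (15.4 to 21.7 against 31.1 to 44.2) and above it at 8 weeks (77.6 to 103 against 53.1 to 59.5).

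The relatives miR-21b and miR-21c were rare. miR-21b had 9.70, 9.90 and 11.6 RPM in MI at 1 week, against 0.968, 1.17 and 1.35 RPM in sham, and 12.9, 13.5 and 21.8 RPM in MI at 8 weeks, against 1.06, 0.967 and 0.979 RPM in sham. At 1 day MI and sham overlapped, with 2.40, 2.02 and 1.12 RPM in MI and 0.845, 0.426 and 1.23 RPM in sham. miR-21c, which shares the seed of the 5p arm, was counted nearly as often as miR-21b in each library, with 7.99, 8.30 and 10.1 RPM in MI at 1 week, against 0.769, 1.03 and 1.26 RPM in sham. No library held more than 9.76 reads of miR-21b or 8.86 reads of miR-21c per 10000 reads of miR-21a-5p. How reads that match more than 1 of these near-identical miRNAs were assigned is not given in the sources used here, so the levels of both are uncertain.

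The mRNA host gene and the 3 targets were tested with limma on log2(FPKM + 1) across 12858 genes. Genes with adjusted p under 0.05 and higher in MI made up 39.7%, 72.8% and 70.4% of all genes in order of stage, and genes lower in MI 30.6%, 16.5% and 10.6%. FPKM are shares of a library, and the median gene itself was shifted by 0.09, 0.79 and 0.52 in log2 at the 3 stages. After quantile normalization 33.9% rose and 42.1% fell after 1 day, 40.5% rose and 40.3% fell after 1 week, and 29.4% rose and 40.9% fell after 8 weeks. Fold changes below are therefore also given relative to the median gene.

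Vmp1, whose last exon holds the miR-21a hairpin, was higher in MI at all 3 stages. At 1 day it had 36.5, 45.4 and 42.8 FPKM in MI, against 16.4, 15.7 and 15.0 FPKM in sham. At 1 week it had 42.0, 40.3 and 35.2 FPKM in MI, against 13.1, 12.1 and 14.0 FPKM in sham. The 8-week libraries had 21, 21.2 and 25.7 FPKM in MI, against 12.1, 12.4 and 13.8 FPKM in sham. The groups did not overlap at any stage, and 45.4%, 74.8% and 66.3% of genes were likewise higher in every MI than in every sham library at the 3 stages in turn. The log2 fold changes of Vmp1 were 1.35 (SE 0.10, limma adjusted p = 9.05e-09), 1.52 (SE 0.10, adjusted p = 1.76e-09) and 0.78 (SE 0.10, adjusted p = 5.16e-06), which is 1.25, 0.73 and 0.25 above the median gene.

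At 8 weeks the rise of Vmp1 was lost with median-ratio factors, where its log2 fold change was 0.10 (limma adjusted p = 0.284). The change of Vmp1 was smaller at 8 weeks than at 1 week by 0.74 in log2 (a difference of -0.74, SE 0.14, limma adjusted p = 0.000861) and than at 1 day (difference -0.57, SE 0.14, adjusted p = 0.00242). Between 1 week and 1 day it differed by 0.17 (SE 0.14, adjusted p = 0.292), a value that was -0.63 (adjusted p = 0.00025) with median-ratio factors. In these stage differences 29.9% of all genes were lower at 8 weeks than at 1 week, 11.9% lower at 8 weeks than at 1 day, and 60.0% higher at 1 week than at 1 day. Like the 3p arm, and unlike the 5p arm, Vmp1 was thus higher in MI at 1 day than in MI at 8 weeks.

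Pdcd4, an inhibitor of the translation helicase eIF4A, fell in MI at 1 day and was higher at the later stages. At 1 day it had 2.93, 3.34 and 2.95 FPKM in MI, against 5.56, 6.05 and 7.0 FPKM in sham, a log2 change of -0.82 (SE 0.20, limma adjusted p = 0.00147). At 1 week it had 17.6, 15.2 and 16.7 FPKM in MI, against 5.81, 5.46 and 5.19 FPKM in sham, a log2 change of 1.43 (SE 0.20, limma adjusted p = 4.03e-06). At 8 weeks it had 8.08, 13.4 and 19.9 FPKM in MI, against 3.88, 4.47 and 3.88 FPKM in sham, a log2 change of 1.47 (SE 0.20, limma adjusted p = 7.76e-06). The groups did not overlap at any stage, and at 1 day 35.9% of genes were likewise lower in every MI library. At 1 week 74.8% and at 8 weeks 66.3% of genes were likewise higher in every MI library. Relative to the median gene the changes were -0.91, 0.64 and 0.94. The change at 1 week exceeded that at 1 day by 2.25 (SE 0.28, limma adjusted p = 4.27e-06), while 60.0% of all genes were higher in this contrast. The change at 8 weeks exceeded that at 1 day by 2.29 (SE 0.28, limma adjusted p = 4.85e-06), while 51.8% of all genes were higher in that contrast. Among the MI groups Pdcd4 was lowest at 1 day, when miR-21a-5p was at its lowest MI level. The Pdcd4 levels at 1 week, when miR-21a-5p peaked, overlapped those at 8 weeks. Against sham at 1 day, Pdcd4 was lower and miR-21a-5p higher (3.29-fold by TMM). Whether these levels are related was not tested.

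Spry1, an inhibitor of receptor tyrosine kinase signalling to ERK, had 6.87, 7.25 and 7.95 FPKM in MI at 1 day, against 5.01, 5.45 and 7.80 FPKM in sham. These groups overlapped, and the log2 change was 0.26 (SE 0.17, limma adjusted p = 0.193), which became 0.42 and passed the threshold without the third sham library. At 1 week Spry1 had 43.6, 41.1 and 41.6 FPKM in MI, against 9.68, 8.46 and 10 FPKM in sham, the largest rise of the sprouty and Spred genes at that stage on the log2(FPKM + 1) scale, though not in FPKM means, where Spred3 was highest at 14.3-fold (log2 change of Spry1 2.05, SE 0.17, limma adjusted p = 1.67e-08). At 8 weeks it had 13.7, 21.9 and 24.5 FPKM in MI, against 8.62, 10.2 and 8.11 FPKM in sham (log2 change 1.04, SE 0.17, limma adjusted p = 5.29e-05). Relative to the median gene the changes were 0.16, 1.26 and 0.52. The change at 1 week exceeded that at 1 day by 1.80 (SE 0.24, limma adjusted p = 9.86e-06), and that at 8 weeks was smaller than that at 1 week (difference -1.01, SE 0.24, adjusted p = 0.00371). It exceeded that at 1 day by 0.78 (SE 0.24, adjusted p = 0.0103), a call that was lost with median-ratio factors (0.24, adjusted p = 0.24).

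Reck, a membrane-anchored inhibitor of matrix metalloproteases, had 1.24, 0.915 and 0.954 FPKM in MI at 1 day, against 1.12, 1.17 and 1.36 FPKM in sham, which overlapped (log2 change -0.13, SE 0.30, limma adjusted p = 0.729). At 1 week it had 13, 9.98 and 11.3 FPKM in MI, against 1.46, 1.22 and 1.27 FPKM in sham (log2 change 2.41, SE 0.30, limma adjusted p = 1.39e-06). At 8 weeks it had 5.61, 14.3 and 24.1 FPKM in MI, against 1.06, 1.17 and 0.842 FPKM in sham (log2 change 2.76, SE 0.30, limma adjusted p = 1.01e-06). Relative to the median gene the changes were -0.22, 1.62 and 2.23, and at 8 weeks 98.1% of genes had a lower fold change than Reck. The change exceeded that at 1 day by 2.54 at 1 week (SE 0.43, limma adjusted p = 7.83e-05) and by 2.88 at 8 weeks (SE 0.43, adjusted p = 3.11e-05).

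**Figure D3:**
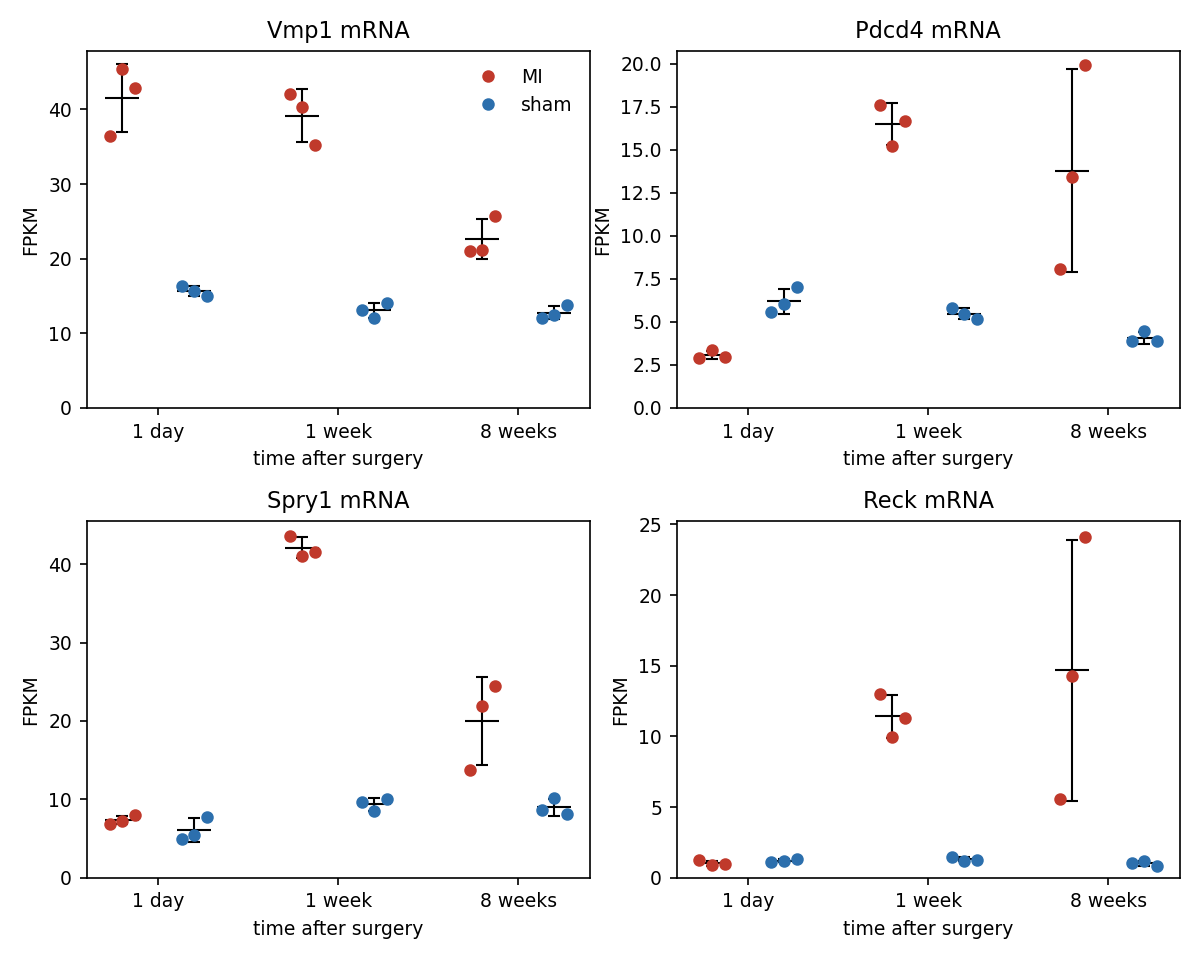
FPKM of the host gene Vmp1 and of the targets Pdcd4, Spry1 and Reck in each mRNA library of MI (red) and sham (blue) by time after surgery, with the mean ± s.d. of 3 libraries in black. Vmp1 lies above sham at each stage, Pdcd4 lies below sham at 1 day (2.93 to 3.34 against 5.56 to 7.0 FPKM), and all 3 targets lie above sham at 1 week and 8 weeks, with wide spread in MI at 8 weeks.

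The MI libraries of 8 weeks stood apart from each other in the same order for all 3 targets. From the first to the third library the summed cardiomyocyte markers were 38508, 26380 and 16118 FPKM. The 10 fibroblast markers summed to 2163, 4543 and 6603 FPKM, against 504 to 526 FPKM in sham. The activated fibroblast markers summed to 630, 1041 and 2058 FPKM, against 51.8 to 55.5 FPKM in sham, and the 11 macrophage markers to 885, 1254 and 2261 FPKM, against 154 to 223 FPKM. The 7 adipocyte markers measured summed to 608, 1487 and 3155 FPKM, against 649 to 740 FPKM in sham. miR-21a-5p in the small RNA libraries of the same names had 16380, 13799 and 23444 RPM, so that the second was lower than the first. The neutrophil markers had this order too, with sums of 42.6, 30.3 and 89.7 FPKM, against 8.30 to 20.0 FPKM in sham. Without the third MI mRNA library the log2 changes at 8 weeks were 1.18 for Pdcd4, 0.88 for Spry1 and 2.32 for Reck, and all 3 calls held. Without the third MI small RNA library the log2 changes were 2.34 for miR-21a-5p and 1.57 for miR-21a-3p.

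Markers of several other cell types differed between MI and sham at stages when the arms did, and their time courses differed from each other. In MI, fibroblast and activated fibroblast sums were highest at 1 week, then at 8 weeks, then at 1 day, without overlap. The more abundant arm of miR-21a had the same order. Median macrophage sums in MI also had it (3817, 1254 and 884 FPKM), but libraries of 8 weeks and 1 day overlapped. Neutrophil sums in MI were highest at 1 day, unlike either arm. Fibroblast markers summed to 11340 to 13519 FPKM in MI at 1 week, against 655 to 795 FPKM in sham, and to 531 to 583 FPKM in MI at 1 day, against 539 to 740 FPKM in sham, where the groups overlapped. Activated fibroblast markers summed to 201 to 282 FPKM in MI at 1 day, against 61.8 to 72.4 FPKM in sham, and to 5760 to 7640 FPKM at 1 week, against 88.9 to 100 FPKM. The 11 macrophage markers measured summed to 628 to 1050 FPKM in MI at 1 day, against 185 to 269 FPKM in sham, and to 3761 to 4450 FPKM at 1 week, against 168 to 289 FPKM. At 1 day 6 of these 11 markers were called higher (54.5%, against 39.7% of all genes) and 1 lower. Neutrophil markers summed to 6489 to 10390 FPKM in MI at 1 day, against 59.7 to 84.9 FPKM in sham, and to 50.5 to 78.7 FPKM at 1 week, against 16.7 to 41.3 FPKM. No marker of these lists was at 0 in a whole group, and the part of these cells in the levels of miR-21a, Vmp1 and the targets was not tested.

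Of 25 genes reported elsewhere as miR-21 targets, 23 passed the filter on low values, all but Fasl and Il12a. At 1 day 8 of the 23 were higher in MI and 4 lower, at 1 week 18 were higher and 3 lower, and at 8 weeks 19 were higher and 2 lower. The higher ones made up 34.8%, 78.3% and 82.6%, against 39.7%, 72.8% and 70.4% of all genes. Without further normalization the shares at 1 day and 1 week thus lay near that of all genes. After quantile normalization the counts were 8 and 5, 14 and 5, and 12 and 2. The higher ones then made up 34.8%, 60.9% and 52.2%, against 33.9%, 40.5% and 29.4% of all genes. The lower ones then made up 21.7%, 21.7% and 8.7%, against 42.1%, 40.3% and 40.9%. Without this normalization the median log2 change of the 23 was 0.24, 1.12 and 0.84, against 0.09, 0.79 and 0.52 for all genes. The targets that fell included Ppara, a receptor that drives fatty acid oxidation, and Tpm1, a thin filament protein of muscle that is also abundant in cardiomyocytes.

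Largest rises and falls in lists are on the log2(FPKM + 1) scale, which favours abundant genes. Ppara had the largest fall at 1 day (1.53 ± 0.358 FPKM in MI and 10.2 ± 0.486 FPKM in sham) and at 8 weeks (3.96 ± 0.693 FPKM in MI and 11.2 ± 1.43 FPKM in sham). Tpm1 had the largest fall at 1 week on that scale, with 1468 ± 534 FPKM in MI and 6312 ± 486 FPKM in sham, while in FPKM means Ppara fell further (0.865 ± 0.477 FPKM in MI and 6.99 ± 1.07 FPKM in sham). Btg2, an antiproliferative gene, had the largest rise at 1 day (50.4 ± 8.60 FPKM in MI and 9.91 ± 1.43 FPKM in sham). Timp3, a metalloprotease inhibitor held in the matrix, had the largest rise at 1 week on that scale (301 ± 11.9 FPKM in MI and 34.6 ± 5.65 FPKM in sham), below Tiam1 in FPKM means (8.7-fold against 15-fold), and Reck had the largest at 8 weeks.

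**Figure D4:**
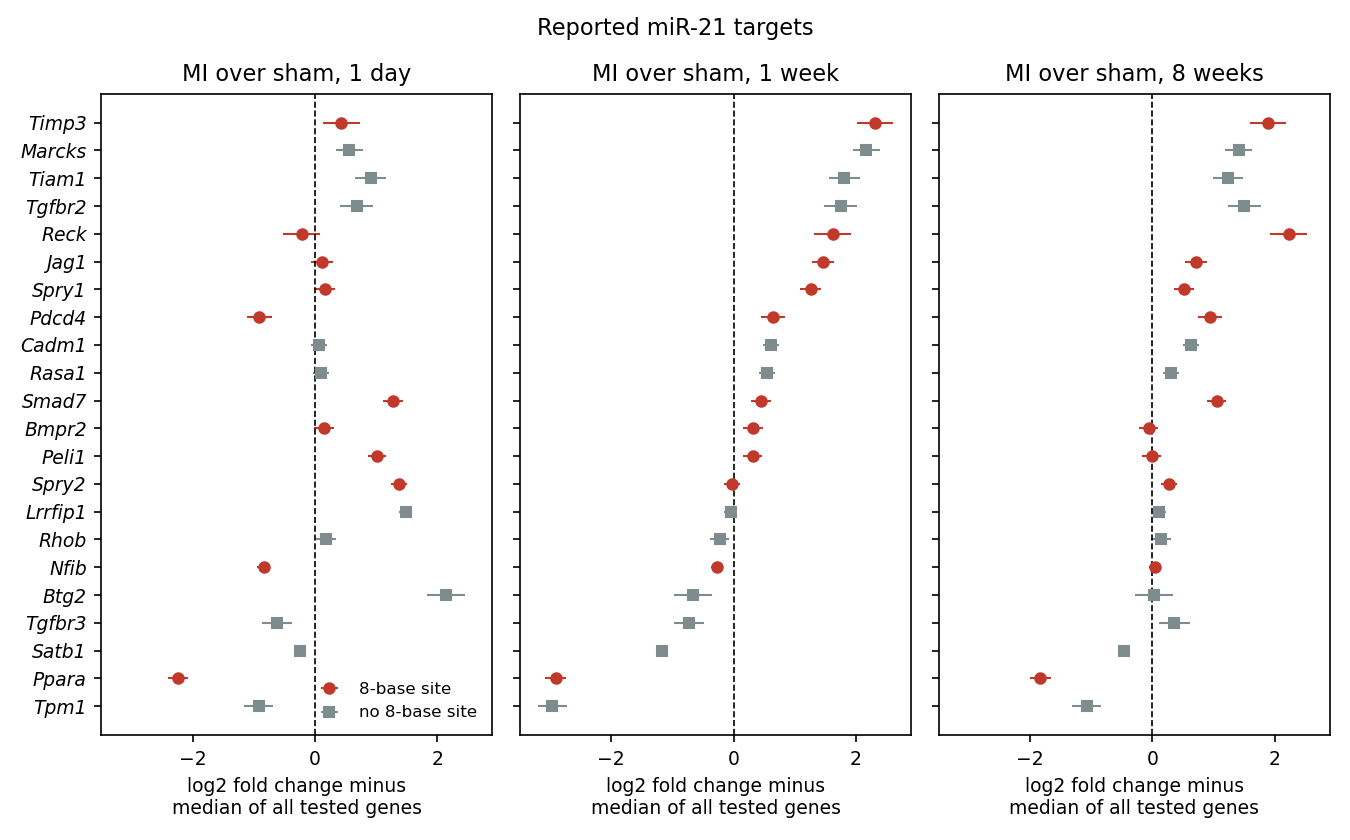
Log2 fold change of MI over sham minus the median of all 12858 genes tested, for 22 of the 23 reported miR-21 targets that passed the filter, by stage, with red circles for genes with the 8-base site in the 3′ UTR, grey squares for genes without it, bars for the standard error of limma, and genes ordered by the value at 1 week. Ppara and Tpm1 lie farthest left at 1 week and Timp3 farthest right, and both kinds of marker lie on both sides of 0.

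Of the 23 targets, 11 held the 8-base site, Pdcd4, Spry1 and Reck among them. Their median change relative to all genes was 0.15, 0.45 and 0.52 in order of stage, and that of the 12 without it was 0.14, 0.13 and 0.25. Over all genes with an annotated 3′ UTR, 282 of 12427 tested held the site. Among these, at 1 day 104 rose in MI and 82 fell, 204 rose and 41 fell after 1 week, and 185 rose and 34 fell after 8 weeks, or 36.9% and 29.1%, 72.3% and 14.5%, and 65.6% and 12.1%, against 39.7% and 30.6%, 72.8% and 16.5%, and 70.4% and 10.6% of all genes. After quantile normalization 86 rose and 123 fell, 98 and 123, and 62 and 133, or 30.5% and 43.6%, 34.8% and 43.6%, and 22.0% and 47.2%. All genes then had 33.9% higher and 42.1% lower, 40.5% and 40.3%, and 29.4% and 40.9%. Without this normalization the median of genes with the site relative to all genes was -0.03, -0.04 and -0.09. Genes with no 7-base core had 0.00, 0.01 and 0.01. The 682 genes with the core but without the 8-base site had 0.01, 0.03 and -0.07, so at 8 weeks they lay near those with the site. The 3′ UTRs of genes with the site were longer, with a median of 3043 bases against 1090 bases in genes with no core. Genes with the core but without the site had a median of 2708 bases.

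**Figure D5:**
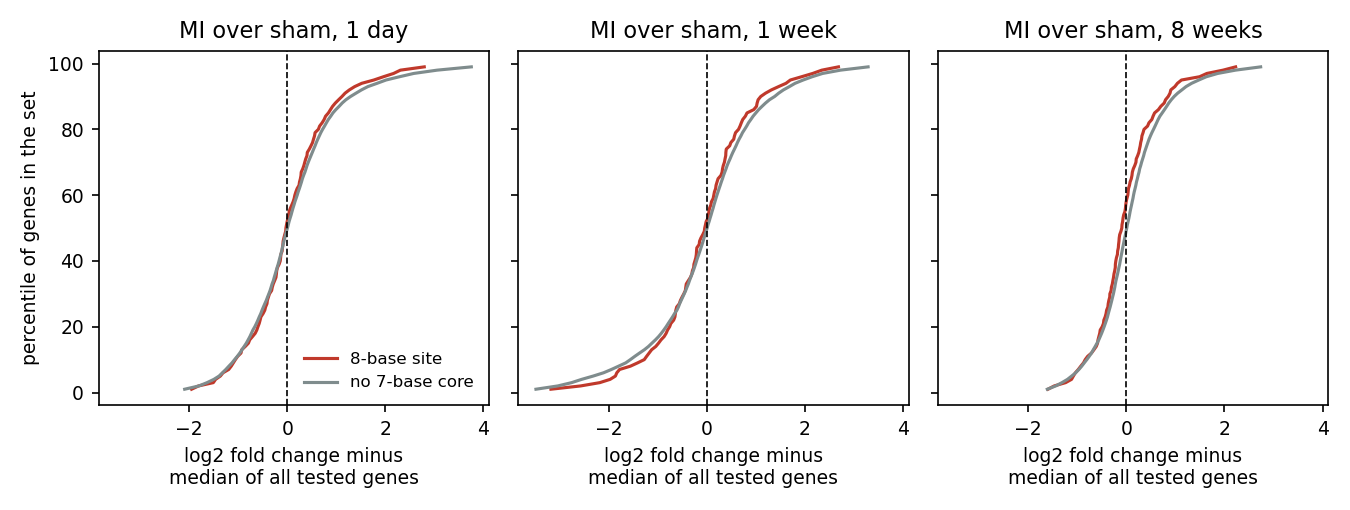
Percentiles of the log2 fold change of MI over sham, minus the median of all genes tested, for 282 genes with the 8-base site in the 3′ UTR (red) and 11463 genes with no 7-base core (grey), by stage. The curves nearly coincide at their middle, where the medians are -0.03, -0.04 and -0.09 for genes with the site and 0.00, 0.01 and 0.01 for genes without the core.

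Genes reported to induce the miR-21 promoter were higher in MI from the first day. Of these 18 genes, 17 rose after 1 day, again 17 after 1 week and 15 after 8 weeks, and none fell, or 94.4%, 94.4% and 83.3% higher, against 39.7%, 72.8% and 70.4% of all genes. After quantile normalization 15, 14 and 10 were higher, and 1 was lower at 8 weeks. The higher ones then made up 83.3%, 77.8% and 55.6%, against 33.9%, 40.5% and 29.4% of all genes. Without this normalization the median log2 change of the 18 was 2.02, 1.32 and 1.05. Il6, the cytokine that signals through Stat3, had the largest rise at 1 day, with 60.7 ± 16 FPKM in MI and 0.236 ± 0.0712 FPKM in sham. On the log2(FPKM + 1) scale Spi1, the myeloid transcription factor PU.1, had the largest rise at 1 week (38.0 ± 1.57 FPKM in MI and 2.72 ± 0.286 FPKM in sham) and at 8 weeks (13.3 ± 6.66 FPKM in MI and 1.64 ± 0.600 FPKM in sham), while in FPKM means Il6 had the largest at both stages (81.1-fold and 95.8-fold). Fosl1, a subunit of AP-1, had 7.62 ± 1.55 FPKM in MI and 0.0489 ± 0.0115 FPKM in sham at 1 day and was under 0.1 FPKM on average in MI at 1 week (0.0751 ± 0.0260 FPKM) and 8 weeks (0.0632 ± 0.0920 FPKM).

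The genes that cut and load miRNAs moved both ways, and their direction depended on the scaling. Of 14 such genes, at 1 day 6 rose and 5 fell, 12 rose and 1 fell after 1 week, and 7 rose and 1 fell after 8 weeks, or 42.9%, 85.7% and 50% higher, against 39.7%, 72.8% and 70.4% of all genes. After quantile normalization 4 were higher and 7 lower, 3 and 5, and 0 and 9. The higher ones then made up 28.6%, 21.4% and 0%, against 33.9%, 40.5% and 29.4% of all genes. The lower ones then made up 50%, 35.7% and 64.3%, against 42.1%, 40.3% and 40.9%. Ago1, an Argonaute, had 8.76 ± 0.578 FPKM in MI and 2.68 ± 0.122 FPKM in sham at 1 week, the largest rise of the list. Dicer1, which cuts the hairpin loop, had 7.08 ± 0.245 FPKM in MI and 3.09 ± 0.179 FPKM in sham at 1 week, 0.19 above the median gene in log2.

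Around the locus, the gene with the largest rise at 1 week was Cltc, the clathrin heavy chain, with 91.0 ± 4.95 FPKM in MI and 26.9 ± 1.88 FPKM in sham. At 1 day it had 49.5 ± 4.83 FPKM in MI and 30.2 ± 2.10 FPKM in sham, a log2 change of 0.69, against 1.35 for Vmp1. Tubd1, the delta tubulin gene, fell at 1 day (1.39 ± 0.293 FPKM in MI and 2.96 ± 0.289 FPKM in sham). Of 5 genes there, Vmp1 and Cltc among them, 2 rose at 1 day, 3 after 1 week and 4 after 8 weeks. These counts stand against 39.7%, 72.8% and 70.4% of all genes higher in MI. Of the 5, 1 fell at 1 day and 0 at the later stages, against 30.6%, 16.5% and 10.6% of all genes. After quantile normalization 2 rose and 3 fell, 2 and 3, and 1 and 3. All genes then had 33.9%, 40.5% and 29.4% higher and 42.1%, 40.3% and 40.9% lower. Whether so short a list differed from all genes was not tested.

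Among 23 genes of autophagosome initiation, Vmp1 had the largest rise at 1 day and at 1 week. In the list at 1 day 10 genes rose and 8 fell, 17 rose and 2 fell after 1 week, and 15 rose and 3 fell after 8 weeks, with 9 and 10, 6 and 12, and 6 and 13 after quantile normalization. Without this normalization the higher ones made up 43.5%, 73.9% and 65.2%, near the 39.7%, 72.8% and 70.4% of all genes. With it they made up 39.1%, 26.1% and 26.1%, against 33.9%, 40.5% and 29.4% of all genes. The lower ones then made up 43.5%, 52.2% and 56.5%, against 42.1%, 40.3% and 40.9%. Without it the median of the list relative to all genes was 0.03, -0.28 and -0.13, against 1.25, 0.73 and 0.25 for Vmp1. Map1lc3a, an LC3 protein of the autophagosome membrane, fell at 1 week to 63.1 ± 17.1 FPKM in MI, against 237 ± 9.38 FPKM in sham. Wipi1, which binds the forming membrane, fell at 1 day to 14.7 ± 1.46 FPKM in MI, against 32.1 ± 1.26 FPKM in sham.

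The genes that work with the targets were read the same way, against the same shares of all genes. Without further normalization these were 39.7%, 72.8% and 70.4% higher and 30.6%, 16.5% and 10.6% lower in order of stage. After quantile normalization these shares were 33.9%, 40.5% and 29.4% higher and 42.1%, 40.3% and 40.9% lower. Of 6 sprouty and Spred genes measured, 4 were higher at each stage (66.7%) and none lower, and after quantile normalization 4 and 0, 3 and 2, and 2 and 2. Spred1, another inhibitor of ERK signalling, had 17.1 ± 0.333 FPKM in MI and 4.62 ± 0.273 FPKM in sham at 1 week. Of Reck and 8 metalloproteases and their inhibitors, at 1 day 4 rose and 2 fell, 8 rose and 1 fell after 1 week, and 8 rose and 1 fell after 8 weeks, or 44.4%, 88.9% and 88.9% higher. After quantile normalization the counts were 4 and 3, 7 and 1, and 8 and 1. Mmp9, a gelatinase that neutrophils carry, had 73.7 ± 23.5 FPKM in MI and 0.845 ± 0.316 FPKM in sham at 1 day. Timp1 had the largest rise at 1 week (193 ± 36.7 FPKM in MI and 2.85 ± 1.40 FPKM in sham), and Timp4 fell (0.732 ± 0.515 FPKM in MI and 10.9 ± 2.39 FPKM in sham). Of Pdcd4 and 6 partners, at 1 day 2 rose and 3 fell, 5 rose and 0 fell after 1 week, and 4 rose and 0 fell after 8 weeks, with 1 and 5, 2 and 5, and 2 and 5 after quantile normalization. The higher ones were 28.6%, 71.4% and 57.1%. Eif4a1, the helicase that Pdcd4 binds, had the largest rise of them at 1 week on the log2(FPKM + 1) scale (199 ± 13.4 FPKM in MI and 70.3 ± 4.12 FPKM in sham), while in FPKM means Pdcd4 rose further (3.01-fold against 2.83-fold).

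Over the 18 small RNA libraries, the miRNAs most like miR-21a-5p by Pearson's r of log2 TMM-scaled reads were miR-532-5p (r = 0.979), miR-99b-3p (0.976), miR-193a-3p (0.95), miR-34c-5p (0.948) and miR-34c-3p (0.947). The 3p arm of miR-21a itself came only 23rd among 357, with r = 0.902. Those most like miR-21a-3p were miR-147-3p (0.969), miR-130b-3p (0.966) and miR-15b-3p (0.953). miR-147-3p had 36.2 ± 4.55 RPM in MI at 1 day, 54.4 ± 7.46 at 1 week and 4.81 ± 1.64 at 8 weeks, against 0.939 ± 0.338, 0.959 ± 0.173 and 0.842 ± 0.140 RPM in sham. miR-34c-5p had 72.2 ± 4.42, 1353 ± 261 and 433 ± 74.0 RPM in MI at these stages, against 23.7 ± 4.95, 34.8 ± 3.44 and 20.4 ± 6.19 RPM in sham. Like the 2 arms, miR-147-3p was lower and miR-34c-5p higher in MI at 8 weeks than in MI at 1 day.

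Among 7354 mRNAs averaging at least 5 FPKM, matched by library name, those most like miR-21a-5p were AF251705 (r = 0.996), Dpysl3 (0.993), Lat2 (0.993), Tcirg1 (0.991) and Pld4 (0.991). Lat2, an adaptor of blood cell receptors, had 5.53 ± 0.598 FPKM in MI at 1 day, 18.4 ± 1.49 at 1 week and 6.67 ± 2.13 at 8 weeks, against 1.18 ± 0.0751, 0.954 ± 0.190 and 0.528 ± 0.0743 FPKM in sham. Dpysl3, a cytoskeletal protein known from neurons, had 22.1 ± 0.417, 78.7 ± 9.92 and 29.8 ± 7.67 FPKM in MI, against 8.78 ± 0.864, 7.92 ± 0.0133 and 5.94 ± 0.232 FPKM in sham. Vmp1 had r = 0.858 with miR-21a-5p and 0.976 with miR-21a-3p, at which it ranked 2606 and 26 of 7354. Pdcd4 had r = 0.683 with the 5p arm, Spry1 0.827 and Reck 0.786. The 18 points share surgery and stage, so these values describe likeness over the 6 groups and carry no p-value.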

How the data were processed

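RNA of left ventricles had been sequenced in 18 mRNA and 18 small RNA libraries. The members and gene lists were chosen with earlier results of these data known. The authors deposited, for 624 miRNAs, the read count and RPM, which is the count scaled to 1000000 miRNA reads, and no listed miRNA had fewer than 1 read in any library. For mRNA the authors deposited FPKM for 16415 genes, without counts. The deposited log2 values are the authors' normalized levels and were used only as an alternative. Sample records name TopHat2 2.0.13, Bowtie2 2.2.3, Cufflinks 2.2.1 and build mm10, also for small RNA, whose mapper and miRBase release are not given in the sources used here. Columns of the authors' fold changes, p-values, means and deviations were not used.

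Counts were fitted with edgeR 4.0.16 (quasi-likelihood, TMM, all 18 libraries, 6 groups) for 358 miRNAs with at least 10 RPM in 3 libraries. FPKM were tested with limma 3.58.1 (trend, log2(FPKM + 1), 12 residual degrees of freedom) for 12858 genes with at least 1 FPKM in 3 libraries, with Benjamini-Hochberg adjustment at 0.05. A fold change on this scale understates changes of low genes. The totals of miRNA reads were 12094554 to 39735944, with a replicate coefficient of variation of 15.4% by edgeR. Target sites were searched in the longest 3′ UTR of each gene in the GENCODE annotation of GRCm38. The fits were tested on simulated data.

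Named were the arms, Vmp1, Pdcd4, Spry1, Reck and miRNAs sharing bases 2 to 8, the called member of each list with the largest rise and fall at each stage, the 5 miRNAs most like the 5p arm, the 3 most like the 3p arm and the 5 mRNAs most like the 5p arm. miR-21b, Fosl1 and Dicer1 were added after their values were seen, and not every gene of this rule is described. The values of 1 of the reported targets are not reported here. Alternatives were other scalings, filters, pseudocounts, tools, single stages, the replicate number as a block and leaving out each library.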

Additional observations from a re-analysis of the deposited data

Results flagged for a closer look

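The change of MI over sham differed between stages, by the limma test of the difference itself, for Vmp1 (-0.74 in log2 for 8 weeks minus 1 week and -0.57 for 8 weeks minus 1 day), Pdcd4 (2.25 for 1 week minus 1 day and 2.29 for 8 weeks minus 1 day), Spry1 (1.80, -1.01 and 0.78 for 1 week minus 1 day, 8 weeks minus 1 week and 8 weeks minus 1 day) and Reck (2.54 for 1 week minus 1 day and 2.88 for 8 weeks minus 1 day). Among all genes, 60.0% were higher for 1 week minus 1 day, 51.8% higher and 11.9% lower for 8 weeks minus 1 day, and 29.9% lower for 8 weeks minus 1 week.

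In reads, the ratio of the 5p to the 3p arm of miR-21a went in opposite directions between stages. Every MI library was below every sham library at 1 day (-1.08 in log2) and at 1 week (-0.49), and above every one at 8 weeks (0.67). In the authors' normalized values it was -0.32 and 0.43, with overlapping groups, and 1.21, so that the opposite direction at 1 week was lost. The difference between the stages was not tested, since the members were chosen on these values.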

How the results depend on the processing

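Both arms of miR-21a stayed higher in MI under all alternatives, but the size followed the scaling. For the 5p arm the log2 change, in order of stage, was 2.30, 5.03 and 3.32 with library totals alone, 2.32, 5.02 and 3.30 by limma on log2(RPM + 1), 2.30, 5.46 and 2.80 from the authors' normalized values (an alternative chosen after seeing the data), and 1.91, 4.41 and 2.85 with no filter. It was 1.95 and 4.28 at 1 day and 1 week for a mean of at least 50 RPM, and 3.75 at 1 week with median-ratio factors and with DESeq2. For the 3p arm it was 3.41, 5.51 and 2.69 with library totals, 3.37, 5.47 and 2.60 by limma, 2.61 and 5.03 at 1 day and 1 week from the authors' values, 4.89 and 2.22 at 1 week and 8 weeks with no filter, 3.05 and 4.75 at 1 day and 1 week for 50 RPM, and 4.23 at 1 week with median-ratio factors and DESeq2. The arm ratio moved by less than the replicate spread with RPM, with 1 read added, with the replicate block and without any 1 library, but with the authors' values it was -0.32, 0.43 and 1.21, so that it reversed at 1 week.

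Leaving out 1 library gave 1.62 to 1.86, 3.75 to 3.91 and 2.34 to 2.64 for the 5p arm, 2.71 to 2.96, 4.26 to 4.42 and 1.57 to 2.01 for the 3p arm, and -1.23 to -0.95, -0.62 to -0.39 and 0.56 to 0.77 for the ratio. No call of Vmp1, Pdcd4 or Reck per stage changed, but Spry1 at 1 day was 0.15 to 0.42 and passed the threshold at 0.42, without the third sham library. The uncalled difference of 8 weeks minus 1 week was -0.26 to 0.35 for Pdcd4, below 0 without the third MI library of 8 weeks, the second MI library of 1 week (-0.02) or the first sham library of 1 week (0.00 as rounded). For Reck it was -0.10 to 0.86, below 0 without the third MI library of 8 weeks and past the threshold without the first (0.86). Among the reported targets, 1 to 2 fell at 8 weeks. Their median minus that of all genes was 0.09 to 0.18, 0.31 to 0.39 and 0.27 to 0.41, and that of genes with the site -0.04 to -0.01, -0.07 to -0.02 and -0.11 to -0.06.

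Vmp1 at 8 weeks (0.10) and the Spry1 difference of 8 weeks minus 1 day (0.24) lost their calls with median-ratio factors. The Vmp1 difference of 1 week minus 1 day was -0.23 with quantile normalization, -0.63 with median-ratio factors and -0.23 with the authors' values. With quantile normalization, median-ratio factors and the authors' values, 5203, 5364 and 5302 genes were higher and 5179, 5090 and 5097 lower at 1 week, and 3783, 4574 and 3962 higher and 5263, 4767 and 5118 lower at 8 weeks. Reported targets numbered 5, 7 and 5 lower at 1 week and 12, 11 and 12 higher at 8 weeks. Genes with the site numbered 98, 111 and 104 higher and 123, 114 and 122 lower at 1 week, and 62, 85 and 65 higher and 133, 127 and 130 lower at 8 weeks. For a mean of at least 5 FPKM, 3093 genes were higher and 2514 lower at 1 day, 5015 higher at 1 week and 4888 at 8 weeks, because fewer genes were tested, and genes with the site numbered 55 higher and 49 lower, 102 higher and 89 higher. At 8 weeks 1 reported target fell with no filter, with each stage alone and with the replicate block, and 22 genes with the site fell with each stage alone.

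The median of the reported targets minus that of all genes was 0.22, 0.56 and 0.42 with no filter, 0.09 and 0.37 at 1 day and 1 week with quantile normalization, 0.08 and 0.36 with the authors' values, 0.27 and 0.21 at 1 week and 8 weeks with median-ratio factors, and 0.38 at 1 week for 5 FPKM. For genes with the site it was -0.04 and -0.12 at 1 day and 8 weeks for log2(FPKM + 0.1), 0.00, 0.03 and -0.04 with no filter, and -0.15 and -0.15 at 1 week and 8 weeks for 5 FPKM. The causes of these shifts were not tested. Deviations of same-numbered libraries correlated over 0.1 in 2 of 9 mRNA and 3 of 9 small RNA pairs. The values ran from -0.092 to 0.29 in mRNA and from -0.457 to 0.218 in small RNA. With 3 libraries per group this cannot tell whether the numbers stand for pairs, and the main fits did not use them as such. The replicate block changed nothing else above. The depth of the mRNA libraries is unknown, and the lowest count of either arm was 1013 reads.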
